A study of Mus musculus with 3 samples.

Results

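The axonemal and ciliary genes described here were the 53 of 31040 genes in the count table whose symbols begin with Dnah, Cfap or Rsph followed by a digit, or are Enkur, Spef2 or Hydin. The rule used symbols and no measured value. Nuclei of frozen lumbar cord from 12 mice, all 90 days old and 3 per combination of sex and genotype, had been profiled by single-nucleus RNA-seq. The SOD1G93A mice carried the high-copy human transgene of strain B6.Cg-Tg(SOD1*G93A)1Gur/J, a model of amyotrophic lateral sclerosis, and mice with an altered copy number had been left out. The WT mice were littermate controls, listed as C57BL/6J, and both groups were anesthetized with ketamine and xylazine and perfused with PBS before the cord was taken. Each of 3 pools (A, B and C), run as 10x batches, held 1 mouse of every sex and genotype, told apart by hashtags on the nuclei.

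A motile cilium is built around an axoneme of microtubule doublets that surround a central pair of microtubules. Dynein arms, whose heavy chains are the Dnah proteins, make the doublets slide, while radial spokes and the central pair set the rhythm of the beat. In the spinal cord the cells with motile cilia are the ependymal cells that line the central canal. Most other cells carry a primary cilium, which lacks the dynein arms and does not beat.

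The 12 mice gave 14662 nuclei, from 548 to 2259 per mouse, with 6411715 to 36668441 UMIs (unique molecular identifiers, each a counted RNA molecule) per mouse. Of the barcode sequences, 15 were seen in more than 1 pool. Ependymal nuclei numbered 93, with a median of 2110 UMIs against 9498 in all other nuclei. Female WT pool A had no ependymal nucleus and female SOD1G93A pool B had 1, so ependymal comparisons rested on 5 WT and 6 SOD1G93A mice. The other 10 mice had from 3 to 21 ependymal nuclei, so counts of single genes were small.

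Of the 8 ependymal markers, 5 were highest in these nuclei, 3 of them by a wide margin. Tmem212 reached 579 UMIs per 1000000 UMIs of the type (CPM), Ccdc153 143 CPM, and Dynlrb2 107 CPM. Foxj1, the master regulator of motile ciliogenesis, was at 19.8 CPM from 5 UMIs, against 14.9 CPM in nuclei labelled Schwann_Meningeal, and Rarres2 at 35.7 CPM from 9 UMIs, against 29.0 CPM in endothelial nuclei. Sox9 was highest in astrocytes, Pltp in endothelial nuclei, and Mia had no UMI in ependymal nuclei. All 6 neuron markers were also seen in the ependymal nuclei, summing to 310 to 1078 CPM in WT mice and 311 to 2962 CPM in SOD1G93A mice, against 3413 CPM in neurons. The 4 oligodendrocyte markers summed to 443 to 1298 CPM in WT and 311 to 2469 CPM in SOD1G93A ependymal nuclei. The 6 astrocyte markers summed to 493 to 3306 CPM in WT and 466 to 1419 CPM in SOD1G93A, and the 4 OPC markers to 44.3 to 165 CPM and 0 to 1555 CPM. The part of these markers in the results was not tested. Nuclei labelled microglia held the neuron markers at 2166 CPM and their own at 130 CPM, and those labelled Schwann_Meningeal held them at 5056 and 114 CPM, so these labels are used below as names of groups of nuclei only.

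Axonemal genes took 2.13% of all ependymal UMIs and 0.0547% of the UMIs of all other nuclei, a ratio of 39.0. The share in ependymal nuclei of WT mice was 2.22% (female, pool B), 2.04% (female, pool C), 2.24% (male, pool A), 2.33% (male, pool B) and 1.89% (male, pool C). In SOD1G93A mice it ranged from 1.52% to 3.72% with a median of 1.90%. The other 9 types lay between 0.0282% and 0.0805% in every mouse, so that no mouse of any other type came near the lowest ependymal value. Cell types had been named from clusters of these same nuclei with all genes, so the contrast is a description and carries no test.

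**Figure D1:**
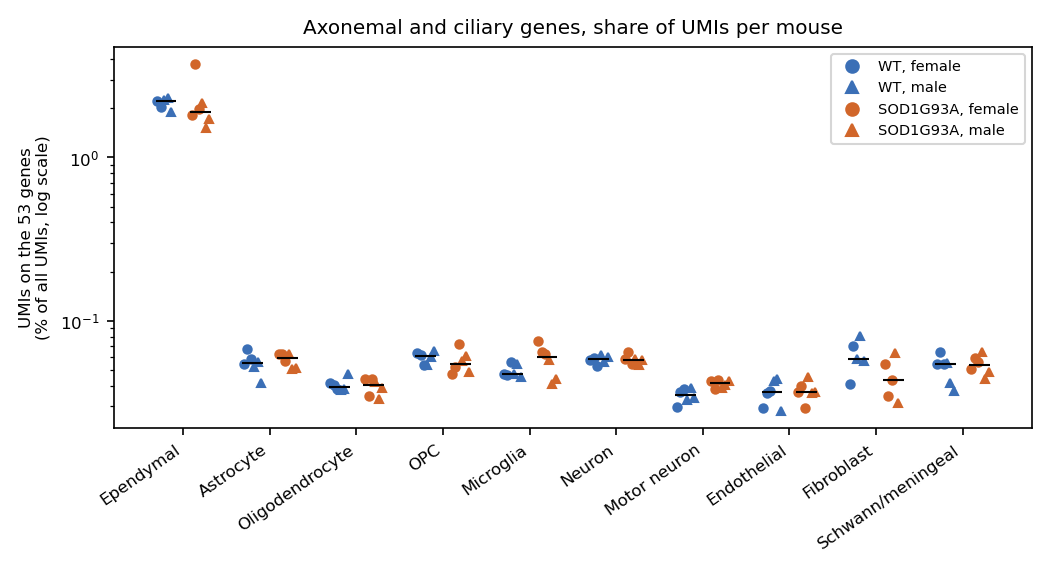
Share of UMIs on the 53 axonemal and ciliary genes (percent of all UMIs, log axis) for each mouse and cell type, WT in blue and SOD1G93A in orange, circles for females and triangles for males, with black lines at the group medians. Ependymal values sit at 1.52% to 3.72% and all others at or below 0.0805%.

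Of the 53 genes, 48 (90.6%) had their highest level in ependymal nuclei, against 13.8% of the 20624 genes with at least 25 UMIs, the lowest total of any of the 53. For 40 genes (75.5%) the exact 95% Poisson interval of the ependymal level lay above that of each of the other 9 types, which held for 2.57% of those 20624 genes. These intervals cover counting error only. Ependymal nuclei were 0.634% of all nuclei and gave 4.55% of the 118168 UMIs of the 53 genes, whereas neurons, which are many and deep, gave 71.4%. Among the 48 genes with more than 3 ependymal UMIs, the median ratio of the ependymal level to that of all other nuclei was 73.7, with 18 genes above 100 and 9 below 10. Over all 53 genes, with the 5 of 3 or fewer ependymal UMIs at their measured ratio, the median was 45.8.

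The highest ratios of single genes were those of 2 dynein heavy chains, although the median ratio of all 15 chains was 34.6, below the 76.4 of central-pair genes, the 94.9 of the tether and spoke complexes and the 116 of the doublet proteins. Dnah12, an inner-arm heavy chain, was at 1956 CPM in ependymal nuclei, 544 times the level of all other nuclei, and 493 of its 1234 UMIs came from them. Dnah6, also of the inner arms, was at 845 CPM, with a ratio of 519. The outer-arm chains Dnah11, Dnah9 and Dnah5 were at 1293, 1174 and 659 CPM, with ratios of 306, 31.3 and 108. Of the 15 heavy chains, 11 were clear of every other type, in the sense of the counting intervals above.

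The complexes that fix and tune the arms followed the same pattern. All 7 genes of the tether, the modifier of inner arms and the calmodulin-spoke complex were clear of every other type, among them the tether proteins Cfap44 (1428 CPM) and Cfap43 (1119 CPM) and the spoke-complex protein Cfap61 (793 CPM). The 8 proteins that line the inside of the doublets were also clear, with Enkur at 480 CPM, a ratio of 379, and Cfap20 at 139 CPM, a ratio of 5.77. All 9 central-pair genes were clear, including Spef2 (1345 CPM, ratio 106), Hydin (825 CPM, ratio 168), Cfap54 (1321 CPM, ratio 41.5) and Cfap69 (746 CPM, ratio 9.71).

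Radial-spoke genes split. Of 8, the 3 that were clear of every other type were Rsph4a, Rsph1 and Rsph10b, with ratios of 195, 45.8 and 16.6. Rsph3a, Rsph3b, Rsph14, Rsph9 and Rsph6a were not clear, although their highest level was in ependymal nuclei. Ependymal UMIs were few for some of these, 14 for Rsph9, 10 for Rsph14 and 1 for Rsph6a, which widens their counting intervals. The ratio of Rsph9 was 15.9, near that of Rsph10b. Cfap36, a partner of a small GTPase of cilia, was at 175 CPM in ependymal nuclei and at 37.3 to 108 CPM in all 9 other types, with a ratio of 2.25. Cfap97 had a ratio of 2.35 and was not clear of other types.

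**Figure D2:**
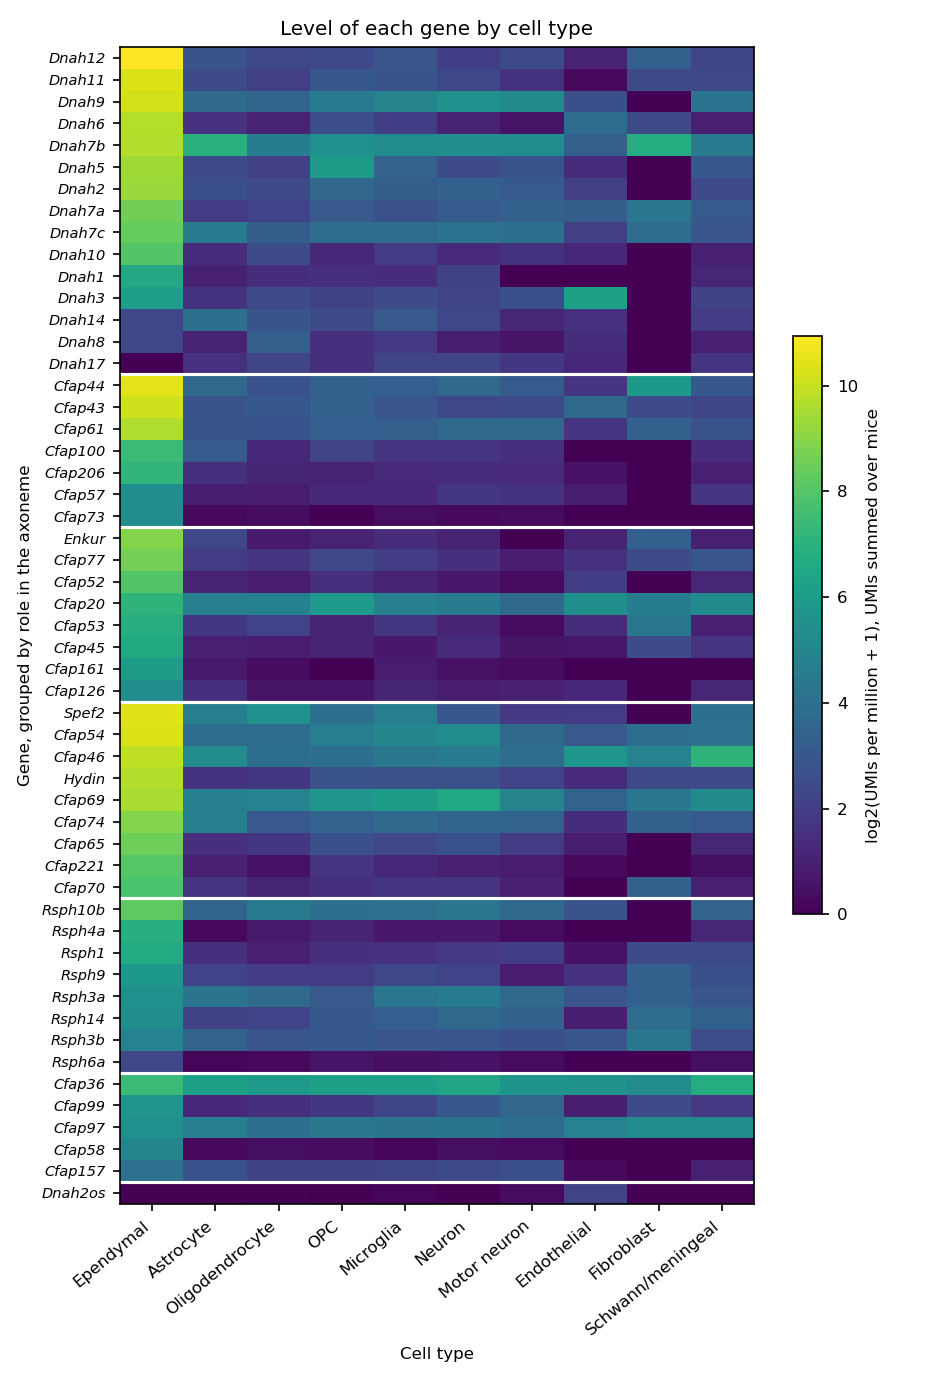
Level of each of the 53 genes (log2 of CPM plus 1, UMIs summed over mice) in 10 cell types, with genes in rows grouped by role and ordered within a role by their ependymal level. The ependymal column is brightest in 48 rows, and since gene lengths differ, colours are to be compared along a row.

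Nuclear counts include introns, so the length of a gene may affect its level. Whether counts scaled with span was not tested, so the values per length are a description and no ranking of the genes. Per 10 kb of annotated gene span, the ependymal level was 195 CPM for Enkur (24.6 kb), 163 CPM for Cfap44 (87.6 kb), 115 CPM for Cfap46 (82.9 kb) and 109 CPM for Rsph4a (10.9 kb). Dnah12 had 98.6 CPM per 10 kb, Spef2 78.8 and Hydin 24.0, the last over a span of 343 kb. Dnah7a, Dnah7b and Dnah7c have transcripts 96.8% to 97.3% identical and Rsph3a and Rsph3b 95.2%, so how counts were divided among these copies is uncertain. On their spans, 8.11% of Rsph10b was shared with other genes of the same strand, and the antisense transcript Dnah2os lies opposite 5129 bases of Dnah2.

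Detection in single nuclei gave the same picture when depth was made equal. With every nucleus thinned to 2000 UMIs, 52 ependymal and 13597 other nuclei remained, and 41 and 972 shallower nuclei were left out. Thinned ependymal nuclei held a median of 21.5 of the 53 genes and other nuclei a median of 1. A UMI of Dnah12 was found in 96.2% of thinned ependymal nuclei and 0.517% of thinned neurons, which should lack it, and one of Hydin in 73.1% and 0.839%. Without thinning, the shares over all nuclei were 93.5% of ependymal and 3.24% of other nuclei for Dnah12, and 77.4% and 4.16% for Hydin.

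The start regions of these genes were searched for the letters bound by the ciliary transcription factors of the RFX family (GTTGCC, either strand) and for the forkhead letters TGTTTAC, either strand, the kind of motif bound by Foxj1. RefSeq windows of 250 bases before to 50 after the start (build GRCm38.p6) were at hand for 42 of the 53 genes. GTTGCC stood in 15 of the 42 (35.7%) and in 14.1% of all 27025 genes with such a window. It stood in 13 of the 33 genes clear of other types and in 2 of the other 9 (Cfap58 and Rsph3b). The 15 and the 13 include the near-identical copies Dnah7a, Dnah7b and Dnah7c, whose start regions are alike, so these matches are not independent. TGTTTAC stood in 3 of the 42 (Cfap20, Cfap43 and Dnah17) and in 4.05% of all genes. A match is a description of the letters and shows no binding. The 150 bases before the start are printed for 5 genes picked because they hold the letters and differ in role, a heavy chain, a tether protein, 2 doublet proteins and a central-pair protein, 5′ to 3′ on the strand of the gene, with GTTGCC or its complement GGCAAC in capitals.

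Enkur, chr2:21205366-21205515, minus strand: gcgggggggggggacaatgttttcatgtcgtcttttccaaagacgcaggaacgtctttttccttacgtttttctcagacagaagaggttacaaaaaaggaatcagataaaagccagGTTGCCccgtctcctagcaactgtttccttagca
Cfap161, chr7:83794840-83794989, minus strand: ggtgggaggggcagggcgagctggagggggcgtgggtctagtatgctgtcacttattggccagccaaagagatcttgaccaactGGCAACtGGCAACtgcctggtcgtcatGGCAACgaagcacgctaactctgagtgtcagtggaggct
Dnah10, chr5:124724935-124725084, plus strand: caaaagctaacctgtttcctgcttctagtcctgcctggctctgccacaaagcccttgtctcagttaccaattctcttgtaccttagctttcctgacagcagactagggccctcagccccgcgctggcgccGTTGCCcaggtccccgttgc
Cfap44, chr16:44394649-44394798, plus strand: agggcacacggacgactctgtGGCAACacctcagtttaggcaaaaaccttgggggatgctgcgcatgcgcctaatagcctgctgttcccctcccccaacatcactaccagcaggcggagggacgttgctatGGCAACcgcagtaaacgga
Hydin, chr8:110266827-110266976, plus strand: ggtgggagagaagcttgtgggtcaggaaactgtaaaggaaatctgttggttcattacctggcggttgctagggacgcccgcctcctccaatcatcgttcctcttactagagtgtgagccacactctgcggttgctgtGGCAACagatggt

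In these windows the letters began 34 bases before the start in Enkur, 20 in Dnah10, 13 in Hydin, 129 and 19 in Cfap44, and 66, 59 and 39 in Cfap161, which held 3 copies. All 5 genes were clear of the other types, with ratios of ependymal to other nuclei of 379 (Enkur), 136 (Dnah10), 168 (Hydin), 127 (Cfap44) and 158 (Cfap161). The exact letters were not in the windows of Dnah12, Dnah6 and Dnah11, whose ratios were 544, 519 and 306. Variants were not searched, and the Dnah6 window holds GTTGCT and AGCAAC, so a window without GTTGCC may still hold an RFX site.

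In 5 of the 53 genes the highest level was outside the ependymal nuclei. Dnah17, an outer-arm chain known from sperm tails, had no UMI among 252050 ependymal UMIs, which allows up to 11.9 CPM (3 UMIs), and was at 3.90 CPM in neurons, 3.88 CPM in oligodendrocytes and 3.87 CPM in nuclei labelled microglia. Dnah14 was at 15.3 CPM in astrocytes and Dnah8, also known from sperm tails, at 9.03 CPM in oligodendrocytes, each with 1 ependymal UMI. Dnah3 was at 73.1 CPM in endothelial nuclei and 67.4 CPM in ependymal nuclei (exact Poisson interval 39.3 to 108), with 5.33 CPM or less in all other types. Dnah2os had 17 of its 25 UMIs in endothelial nuclei. At the ependymal depth none of these 5 could be shown to be lower in ependymal nuclei than in the type where it was highest.

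Endothelial Dnah3 was present in every mouse. It ranged from 41.2 to 85.4 CPM in WT (median 61.7) and from 70.0 to 101 CPM in SOD1G93A mice (median 81.5), with overlapping groups. It was the gene of smallest genotype p among those tested in endothelial nuclei and was not called.

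Several genes had a further site outside the ependyma. Dnah5 was at 60.6 CPM in oligodendrocyte precursors (OPC; 28.4 to 149 CPM over mice), against 9.78 CPM or less in the other 8 types outside the ependyma. Dnah7b was at 121 CPM in astrocytes (84.6 to 158 CPM over mice) and at 107 CPM in the 46 fibroblast nuclei, where 23 UMIs from 7 of 10 mice were behind the value. Cfap46 was at 139 CPM in nuclei labelled Schwann_Meningeal (31.3 to 191 CPM over mice) and at 52.3 CPM in endothelial nuclei. Spef2 was at 45.8 CPM in oligodendrocytes (24.5 to 89.4 CPM over mice) and at 6.81 CPM in neurons. Cfap69 was at 92.9 CPM in neurons and 63.8 CPM in nuclei labelled microglia, and Cfap20 at 58.7 CPM in OPC. Dnah9 was at 45.4 CPM in neurons and 36.5 CPM in motor neurons. Cfap44 was at 55.9 CPM in fibroblasts, but all 12 UMIs lay in 4 nuclei of 2 mice, 11 of them in WT, and 8 of 10 mice had none.

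**Figure D3:**
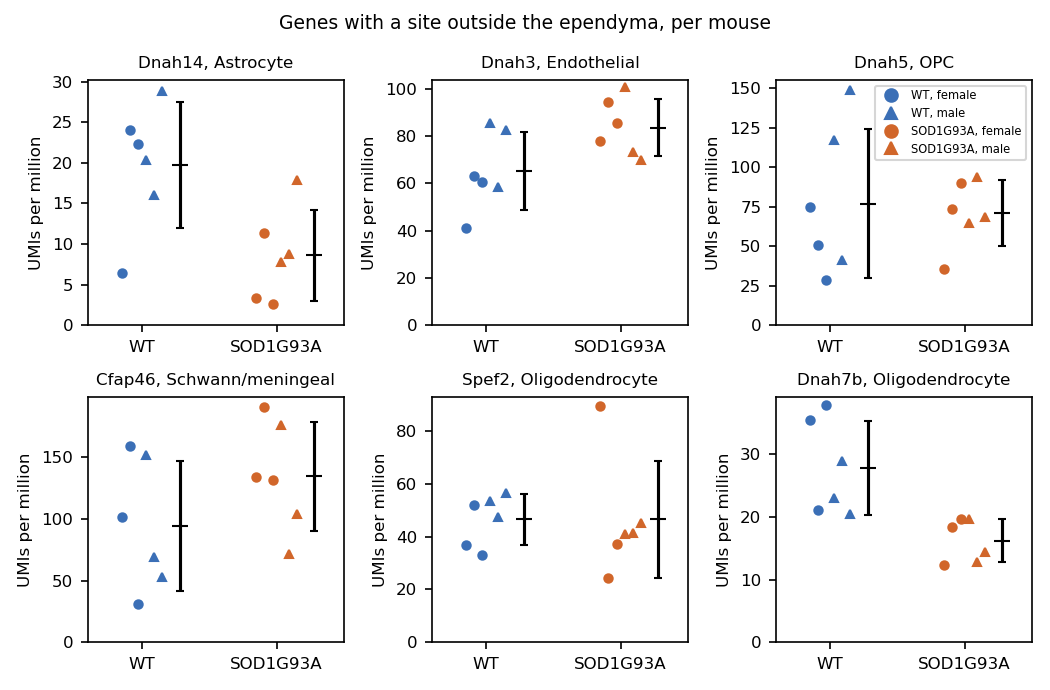
Level (CPM) of 6 gene and cell type pairs in each of 12 mice (circles female, triangles male; WT blue, SOD1G93A orange), with the mean and SD of each genotype in black. Only Dnah7b in oligodendrocytes, the gene of smallest genotype p there, had groups that did not overlap. The share of all genes without overlap was not counted.

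The genes did not keep the ependymal proportions elsewhere. The ratio of the ependymal to the neuron level ran from 2.02 (Rsph3a) to 768 (Dnah6) over the 48 genes with more than 3 ependymal UMIs, and both Dnah12 and Dnah6, the genes of highest ependymal ratio, were at 1.10 to 3.07 CPM in neurons. Within neurons the level differed by sub-type. Cfap69 was at 172 CPM in dorsal excitatory (DE) neurons and at 53.1 to 76.0 CPM in the other named sub-types and those left unclear, and the DE level was the highest of all sub-types in 12 of 12 mice. Cfap54 was at 83.6 CPM in DE and 74.9 CPM in mid excitatory (ME) neurons, against 11.5 CPM in ventral inhibitory neurons. Dnah7b was at 60.6 CPM in DE and 14.4 CPM in dorsal inhibitory (DI) neurons, with DE above DI in 12 of 12 mice. Dnah9 was at 85.3 CPM in ventral cholinergic (VC) neurons, 68.3 CPM in ME and 17.4 CPM in DI neurons.

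Some neuron clusters, most of them DE, held many of the genes together, a pattern picked out after the values were seen. By sub-type, ME neurons (198 nuclei) had the highest level of 17 of the 46 genes with at least 100 neuron UMIs and DE neurons (3089 nuclei) of 11, against 17.7% and 10.7% of all 16094 genes with as many. Some of the ME places rest on few UMIs, such as 5 for Cfap221 and 6 for Dnah6. Of these 46 genes, cluster 19 (261 nuclei, 99.2% DE) had 21 at 2 or more times the mean of all neurons, cluster 37 had 18, cluster 28 had 17, cluster 52 (63 nuclei, 50.8% ME) had 16 and cluster 12 had 13. Of the 16094 genes with as many neuron UMIs, 6.41% reached that level in cluster 19, 9.57% in cluster 37, 5.97% in cluster 28, 6.44% in cluster 52 and 4.52% in cluster 12, against 45.7%, 39.1%, 37.0%, 34.8% and 28.3% of the 46. Cluster 19 held 0.136% of its UMIs on the 53 genes and cluster 38 held 0.165%, against 0.0576% in all neurons. In cluster 19, Cfap54 was at 220 CPM against 33.9 CPM in all other neurons, Cfap44 at 51.9 against 12.0 CPM and Cfap65 at 38.7 against 5.07 CPM, each higher in 12 of 12 mice. Enkur was at 11.4 against 0.953 CPM, higher in 10 of 12 mice. Tmem212, the leading ependymal marker, had 1 UMI in cluster 19 (0.379 CPM), and Hydin was at 7.20 against 5.48 CPM there. The clusters had been made from all genes of these nuclei, so no test was made.

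**Figure D4:**
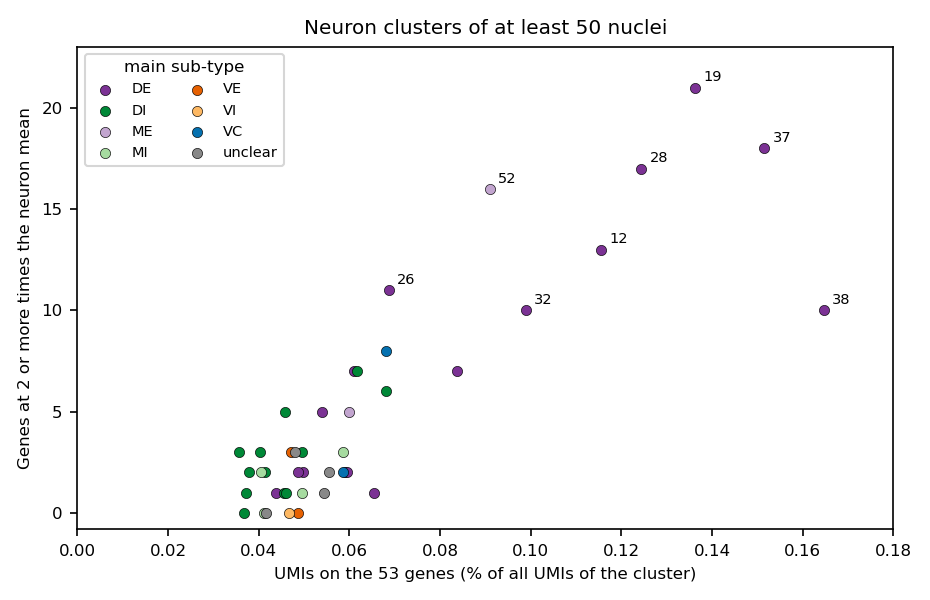
Neuron clusters of at least 50 nuclei by the share of their UMIs on the 53 genes (percent, horizontal axis) and the number of genes at 2 or more times the mean level of neurons (vertical axis), coloured by main sub-type, with cluster numbers at 10 or more genes. Clusters 12, 19, 28, 37 and 38, all DE, stand to the right of the rest, at 0.116% or above.

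SOD1G93A and WT mice were compared in each cell type with limma on UMIs summed per mouse, with the pool as covariate, for the mean genotype effect of both sexes. A gene was called at an adjusted p (false discovery rate, FDR) under 0.1 over all genes tested in the type. In ependymal nuclei, 18 of the 53 genes passed the filter on low counts and none was called, as 0% of the 471 genes tested there were. At an unadjusted p under 0.05, 1 of 18 passed, against 9.34% of the 471 genes. The edgeR quasi-likelihood test and DESeq2 called none of the 471 genes either, with 25 and 15 of them at an unadjusted p under 0.05, against 44 in limma. The median log2 fold change of the 18 genes was -0.00489 with 8 above 0, beside a median of 0.00173 with 50.3% above 0 over all 471.

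Cfap61 had the smallest p of the 18. Its level was 1116 and 1330 CPM in WT females of pools B and C, and 938, 770 and 633 CPM in WT males of pools A, B and C. In SOD1G93A mice it ranged from 0 to 829 CPM with a median of 405 CPM. The highest SOD1G93A values lay within the WT range, and the value was lower in SOD1G93A in 5 of 5 pairs of the same sex and pool. The log2 fold change was -0.90 (SE 0.43, 95% interval -1.76 to -0.04, limma adjusted p = 0.503).

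For the other 17 genes the intervals all included 0. Among heavy chains, Dnah12 was at 1971 ± 266 CPM (SD, n = 5) in WT and 2483 ± 1252 CPM (SD, n = 6) in SOD1G93A mice, a log2 fold change of 0.16 (95% interval -0.36 to 0.68). Without female SOD1G93A pool B, which had 1 ependymal nucleus, the Dnah12 change was -0.11. Dnah11 gave 0.03, Dnah9 -0.18, Dnah5 0.22, Dnah2 0.20, Dnah6 -0.30, Dnah7b -0.25 and Dnah7c -0.46 on the log2 scale. Of the tether proteins, Cfap44 gave 0.06 and Cfap43 0.26, and Enkur gave -0.01.

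Central-pair genes were spread on both sides of 0. Hydin was at 889 ± 171 CPM (SD, n = 5) in WT and 684 ± 447 CPM (SD, n = 6) in SOD1G93A mice, a log2 fold change of -0.54 (95% interval -1.24 to 0.15). Spef2 gave -0.38, Cfap54 -0.00, Cfap69 -0.06, Cfap46 0.34 and Cfap74 0.38. The intervals reached from 0.521 to 1.15 on the log2 scale to either side of the estimate, so smaller changes could not be told from 0 at this depth. The intervals are not adjusted for the number of genes tested, so larger changes could go uncalled too, as that of Cfap61 did.

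**Figure D5:**
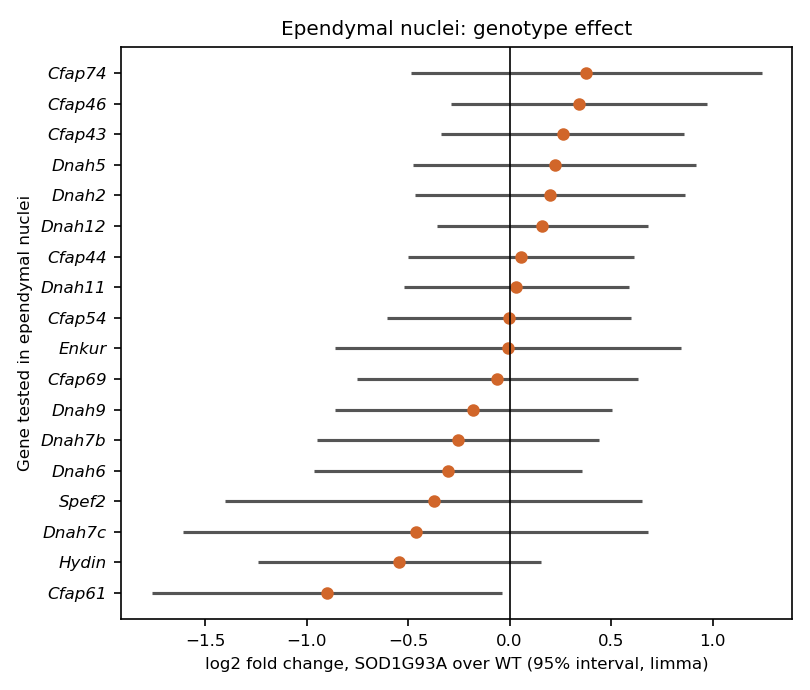
Log2 fold change of SOD1G93A over WT mice (horizontal axis) of the 18 genes tested in ependymal nuclei, with 95% intervals from limma. All intervals but that of Cfap61 cross 0, and none of the 18 was called.

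The number of ependymal nuclei did not differ detectably by genotype. The log2 fold change of their share was 0.30 (edgeR quasi-likelihood test, adjusted p = 0.722 over the cell types). The number of nuclei was compared apart from the levels, which are scaled to the UMIs of the type in each mouse. RNA per nucleus was not compared between genotypes, and loss of nuclei in preparation was not measured.

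In the other types, 0 of the 53 genes was called for genotype. The numbers tested, and the share of all genes called in each type, were 15 in astrocytes (2.29%), 5 in endothelial nuclei (0.0131%), 16 in microglia (0.0759%), 4 in motor neurons (3.07%), 45 in neurons (0.0255%), 5 in OPC (0.0411%), 19 in oligodendrocytes (0.0475%) and 4 in Schwann_Meningeal nuclei (0.036%). None was tested in fibroblasts. At an unadjusted p under 0.05, 1 passed in astrocytes (13.6% of all genes), 5 in microglia (7.94%), 2 in neurons (4.16%), 3 in oligodendrocytes (4.77%) and 0 in endothelial nuclei (4.37%), motor neurons (15.9%), OPC (6.39%) and Schwann_Meningeal nuclei (4.66%). Over the 9 types with a test, 12 of 131 tests (9.16%) passed it, against 7.19% of all 68423 tests. Types share mice and genes, so these tests are not independent.

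In motor neurons the share of UMIs on the 53 genes ranged from 0.0297% to 0.0390% in WT (median 0.0353%) and from 0.0382% to 0.0434% in SOD1G93A mice (median 0.0415%). The groups overlapped, and the share was higher in SOD1G93A in 6 of 6 pairs of the same sex and pool. This share was singled out after its values were seen and was not tested, and it rests on 1 to 11 motor neuron nuclei per mouse. In each of the other 8 types outside the ependyma the ranges of both genotypes overlapped as well.

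Dnah14 in astrocytes came closest to a call. It ranged from 6.38 to 28.9 CPM in WT (median 21.4) and from 2.60 to 17.9 CPM in SOD1G93A mice (median 8.24), and was lower in SOD1G93A in 6 of 6 pairs, although the groups overlapped. The log2 fold change was -1.22 (SE 0.38, limma adjusted p = 0.119). The edgeR quasi-likelihood test gave an adjusted p of 0.0848, and over all alternatives the adjusted p ran from 0.0755 (without female WT pool A) to 0.449. A total of 152 astrocyte UMIs lay behind these values.

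Dnah7b, an inner-arm chain, was lower in SOD1G93A oligodendrocytes in 6 of 6 pairs. It ranged from 20.5 to 37.9 CPM in WT (median 26.0) and from 12.3 to 19.8 CPM in SOD1G93A mice (median 16.4), without overlap. The log2 fold change was -0.74 (SE 0.23, limma adjusted p = 0.887). Dnah7b had the smallest genotype p of the 19 genes tested there, so some separation follows from that choice. The share of all genes without overlap, or with all pairs in 1 direction, was not counted. This limit holds too for the pairs of Cfap61 and Dnah14 above and Rsph10b below. Its near-identical copies make the assignment of these reads uncertain.

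Rsph10b, a radial-spoke gene, had the smallest p of the 45 genes tested in neurons. It ranged from 17.3 to 22.3 CPM in WT (median 19.9) and from 14.2 to 18.3 CPM in SOD1G93A mice (median 16.2), was lower in 6 of 6 pairs, and had a log2 fold change of -0.28 (SE 0.08, limma adjusted p = 0.686). In nuclei labelled microglia, Cfap54 had the smallest p, with 13.1 to 38.0 CPM in WT and 29.8 to 68.1 CPM in SOD1G93A mice and a log2 fold change of 0.70 (SE 0.24, limma adjusted p = 0.366). In the remaining types the smallest p belonged to Cfap36 in motor neurons (30.7 to 55.3 CPM in WT, 47.2 to 74.8 CPM in SOD1G93A), Cfap69 in OPC (23.0 to 69.4 and 38.9 to 90.2 CPM) and Cfap97 in Schwann_Meningeal nuclei (26.5 to 69.1 and 18.9 to 51.7 CPM), all with overlapping groups.

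Sex was tested as females minus males, and its difference between genotypes as the male genotype effect minus the female one. No gene of the 53 was called for either in any type. For sex the shares of all genes called were 0.212% in ependymal nuclei, 0.139% in astrocytes, 0.223% in endothelial nuclei, 0.434% in microglia, 0.117% in motor neurons, 0.0701% in neurons, 0.185% in OPC, 0.057% in oligodendrocytes and 0.108% in Schwann_Meningeal nuclei. For the difference they were 0.0107% in astrocytes, 0.0586% in motor neurons and 0% in the other types. In ependymal nuclei 15 of the 18 genes had a higher estimate in females (median log2 0.26), against 45.9% of all genes. Without male SOD1G93A pool B it was 12 of 18, with a median of 0.09, and over all mice left out in turn the median ran from 0.09 to 0.41. The estimate of the difference was below 0 for 16 of the 18 (median -0.53), where 50.3% of all 471 genes were above 0 with a median of 0.01, and for 13 of 18 (median -0.47) without female SOD1G93A pool B, whose value came from 1 nucleus. Over all mice left out in turn the median ran from -0.74 to -0.29, the latter without male WT pool B. The 18 genes were counted in the same 1 to 21 ependymal nuclei of each mouse, so their estimates are not independent. These counts of signs, for sex and for the difference, are a description without a test.

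Other ciliary genes, from lists of related structures, were placed beside the 53. For the counts of clear genes below, 2.57% of the 20624 genes with at least 25 UMIs were clear of other types in ependymal nuclei. Of 67 further axonemal genes with a UMI, 49 were clear of other types in ependymal nuclei, and together they took 1.79% of ependymal UMIs against 0.0438% to 0.0998% elsewhere. Spag16, a central-pair protein, was at 1631 CPM. Of 12 dynein arm assembly factors with a UMI 5 were clear, with Lrrc6 at 313 CPM and Daw1, which brings arms into the cilium, at 222 CPM.

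Of 20 regulators of ciliogenesis 3 were clear, among them Rfx3 at 1341 CPM, and Rfx4, also an RFX factor, was at 290 CPM without being clear of other types. Of 42 genes of intraflagellar transport and the BBSome, which serve motile and primary cilia alike, 11 were clear, with Dync2h1 at 484 CPM and Bbs9 at 385 CPM. Of 35 genes of the primary cilium and transition zone 7 were clear, among them Rpgrip1l at 294 CPM, and Pcm1 was at 305 CPM without being clear of other types. None of the 9 subunits with a UMI of cytoplasmic dynein, a motor that carries cargo along axons, was clear. Dync1i1 was at 270 CPM in ependymal nuclei and 583 CPM in neurons, and Dync1i2 at 119 and 216 CPM.

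Over these lists 4 calls were made, and how they held with edgeR, DESeq2 or a mouse left out is not given here. In motor neurons, Kif3a, a motor of intraflagellar transport, was higher in SOD1G93A mice (log2 0.89, SE 0.24, limma adjusted p = 0.0718), 1 of 19 transport genes tested. Dync1i1 was lower (log2 -0.51, SE 0.14, limma adjusted p = 0.0865), 1 of 6 dynein subunits tested. None of the 4 axonemal, 1 assembly, 2 regulator and 15 primary cilium genes tested there was called, where 3.07% of all genes were. In nuclei labelled microglia, the Hedgehog pathway genes Smo and Gli3 were higher in females (log2 1.48 and 1.01, limma adjusted p = 0.0521 and 0.0307), 2 of 29 genes of the primary cilium tested, where 0.434% of all genes were called. Both were highest in astrocytes, Smo at 86.1 CPM against 8.42 CPM in the microglia-labelled nuclei and Gli3 at 468 against 26.8 CPM, and astrocyte markers summed to 419 CPM in the latter, whose part in these calls was not tested. In ependymal nuclei none of the 22 genes tested from these lists was called for genotype.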

How the data were processed

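Per the labels, nuclei of frozen lumbar cord were hashtagged by mouse and run as 3 10x pools. The authors' processing notes name Cell Ranger 3.1, STAR 2.5.1b, Seurat 4.0.3 and mm10. The deposited table holds raw UMI counts per gene and nucleus, with the authors' labels of mouse, cell type, neuron sub-type and cluster. The authors had removed nuclei with mixed hashtags, and no doublet was called here. The deposited sctransform table was not used.

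UMIs were summed per mouse and cell type and given as CPM. In each type limma 3.58.1 (voom, TMMwsp factors, genes kept by filterByExpr with a minimum count of 10, robust eBayes) was fitted to all genes with sex and genotype as 1 group term and pool as covariate, with Benjamini-Hochberg FDR under 0.1. The scripts were tested on simulated data. Each p rests on separate mice. The labels give the pool of each mouse, so pool paired the mice. Deviations from group means correlated within a pool at a median of 0.292 in neurons (lowest -0.264) and 0.0367 in ependymal nuclei (lowest -0.138). Between pools the medians were -0.151 and -0.0164. Taking out group means by itself pushes values between pools below 0 where those within are above 0, so they add no separate evidence. Alternatives were edgeR 4.0.16, DESeq2 1.42.0, other filters and scalings, no pool term, eBayes without the robust option and leaving out each mouse.

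The naming rule that gave the 53 genes uses no measured value, but that rule and the lists were chosen with earlier results of these data known. Genes were named if they passed the FDR in any type, were tested in ependymal nuclei, were among the 3 highest of another type or had the smallest genotype p in a type, besides Enkur, Spef2 and Hydin. From the other ciliary lists, the 2 genes of highest ependymal level and those called were named, except 1 gene that is not reported here. Further genes were named after their values were seen. Gene spans came from GENCODE (mm10). Poisson intervals, and the upper limit for 0 UMIs (3 UMIs), cover counting error only.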

Additional observations from a re-analysis of the deposited data

Results flagged for a closer look

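Of 72 groups of 5 or 6 mice examined for a value far from the others, 6 had one, and chance gives about 1 in 20 such groups. Female SOD1G93A pool B was the highest of the SOD1G93A mice in ependymal nuclei for the share of UMIs on the 53 genes (3.72% against 1.52% to 2.14%), Cfap69 (2021 against 370 to 691 CPM), Cfap74 (1710 against 170 to 625 CPM) and Hydin (1555 against 324 to 729 CPM). These 4 values come from the same 1 nucleus and are not independent. Among WT mice, Dnah11 was lowest in male WT pool C (704 against 1289 to 1488 CPM), and Dnah6 was highest in female WT pool B (992 against 884 to 915 CPM). The causes were not tested.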

How the results depend on the processing

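Of 1035 values recomputed under the alternatives, 987 were judged the same. For fold changes this meant the same sign and side of the threshold, and for counts and levels an equal or close value. Of the 26 fold changes of single genes followed, 12 had no reversal of sign. Of 27 counts of the genes called, 23 were 0 throughout. The count in astrocytes was 1 (Dnah14) with the edgeR quasi-likelihood test and without a filter on low counts, and 0 to 1 on leaving out each mouse, with the call made without female WT pool A (adjusted p = 0.0755). In motor neurons it was 1 without a filter (Dnah5, log2 1.83, adjusted p = 0.0832). For sex, leaving out each mouse gave 0 to 1 in microglia (Dnah7b, without female WT pool A) and 0 to 1 in OPC (Dnah5, without male WT pool B). Without a filter, the median genotype change of all ependymal genes was 0.42, and Cfap43 (-0.11), Cfap44 (-0.36), Cfap46 (-0.01), Cfap74 (-0.01), Dnah11 (-0.36), Dnah12 (-0.25), Dnah2 (-0.29) and Dnah5 (-0.11) changed sign. Without the replicate block (the pool pairing), Dnah11 changed sign (-0.01) and no call changed. On leaving out each mouse, signs turned within these ranges of the ependymal log2 fold change: Cfap44 -0.08 to 0.25, Cfap54 -0.31 to 0.16, Cfap69 -0.23 to 0.11, Dnah11 -0.20 to 0.17, Dnah12 -0.11 to 0.40, Dnah2 -0.19 to 0.36, Dnah7b -0.48 to 0.20, Dnah9 -0.37 to 0.05, Enkur -0.16 to 0.10 and Spef2 -0.77 to 0.06. The log2 fold change by genotype of the share of ependymal nuclei ran from -0.04 (without female SOD1G93A pool A) to 0.72. Nuclei of other types with at least 5 of the genes were 42.1%, with 64.8% at 3 genes, 10.1% at 10 genes and 0.809% after thinning. The causes were not tested. Depth limits the ependymal tests, which reached 18 of the 53 genes.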

Other observations

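Outside the ependymal type, 15 of the other nuclei (0.103%), from 8 mice, held at least 0.551% of their UMIs on the 53 genes, the lowest share of any ependymal nucleus. They were labelled neuron (6), astrocyte (5) and oligodendrocyte (4), and 4 lay in cluster 41, which held 90 of the 93 ependymal nuclei. Of the 15, 11 held a UMI of at least 1 of the 5 markers highest in ependymal nuclei, against 6.18% of all other nuclei and 73.1% of ependymal nuclei. These 5 were picked from the 8 ependymal markers by their levels in these same data. With all 8 markers it was 11 of the 15, against 19.6% of all other nuclei.

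Dnah10, an inner-arm heavy chain at 4.65 CPM in oligodendrocytes as a whole, was at 48.9 CPM in cluster 55, where 19 of 54 oligodendrocyte nuclei, from 10 mice, held a UMI of it. Dnah5 was at 95.9 CPM in cluster 36 of OPC, and Spef2 at 77.5 CPM in cluster 5 of oligodendrocytes. The clusters were picked after their values were seen.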
